A study of Mus musculus with 6 samples.

Results

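The genes described here serve homologous recombination and the Fanconi anaemia pathway, and 37 of them were read by symbol from the 39017 genes of a table of raw exon counts. All 37 passed the filter on low counts among the 18268 genes tested, and each had a mean normalised count over 100. The cells were iGBs, which are germinal centre-like B cells grown from naive splenic B cells on 40LB feeder cells that provide CD40L and BAFF. Control iGBs came from 3 Cg1-cre mice and Prmt1-null iGBs from 3 Cg1-cre Prmt1f/f mice, all of the C57BL6/J strain. Both groups therefore carried the Cg1-cre allele, which expresses Cre from the IgG1 constant region locus once B cells are activated, and they differed in the loxP-flanked Prmt1 alleles. All cultures received IL-4 (5 ng/ml in the labels) and were harvested 3.5 days after plating. The feeder cells were then depleted with a biotinylated antibody against H2Kd and anti-biotin beads. Each library held the RNA of 1 mouse, each group had 2 females and 1 male, and the age of the mice is not given in the sources used here. PRMT1 is the main enzyme that places asymmetric dimethylarginine on proteins, and the comparison asks which transcripts differ when B cells lose it.

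Homologous recombination repairs a broken chromosome by copying the sister chromatid, so it works in S and G2 phase. The MRE11-RAD50-NBS1 complex and CtIP expose single-stranded DNA at the break, BRCA1-BARD1, PALB2 and BRCA2 prepare it for strand exchange with the sister chromatid, and helicases and nucleases then take apart the joined molecules. The Fanconi core complex attaches ubiquitin to the FANCD2-FANCI pair at crosslinked or stalled replication forks, which brings in nucleases and the recombination proteins. Germinal centre B cells divide fast while their immunoglobulin genes are being mutated and cut, and they rely on repair to keep their chromosomes intact.

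Total counts ran from 45343250 to 62774232 per library, so a gene at 3 counts, taken as the smallest detectable number, stood at 0.0478 to 0.0662 CPM (counts scaled to library size). Prmt1 itself (chr7:44975989-44986568, GRCm38) was counted over all of its exons, with normalised counts of 3965, 3925 and 4838 in Control replicates 1, 2 and 3 and 1745, 1478 and 1478 in Prmt1-null replicates 1, 2 and 3. The mean was 63.1% lower in Prmt1-null iGBs (log2 fold change -1.44, SE 0.095, adjusted p = 1.11e-05 by edgeR's quasi-likelihood test), so every library stood with its label. All 8 markers of B cells were detected in every library, and their summed level was 6644 to 6953 CPM in Control and 6996 to 7168 in Prmt1-null iGBs. The summed level of 7 plasma cell markers was 1148 to 1249 in Control and 1257 to 1398 in Prmt1-null iGBs, and that of 10 fibroblast genes marking the feeder cells, with Postn at 0, was 28.6 to 32.5 and 31.5 to 38.6. Markers of myeloid cells summed to 8.98 to 15.5 in Control and 15.8 to 17.6 in Prmt1-null iGBs, and those of T cells to 1.19 to 2.92 and 1.45 to 2.97 CPM. The part of these differences in the results below was not tested.

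The estimated fold changes of the 37 genes were small and mostly on the lower side in Prmt1-null iGBs, with groups that overlapped in 25. The estimate was below 0 for 31 of them and above 0 for 6 (Palb2, Rad51d, Fancc, Fancf, Fancg and Atr), whereas 50.1% of all genes tested, and 49.6% of those with a mean over 100, lay below 0. Their median log2 fold change was -0.13, with quartiles of -0.22 and -0.061, and the median of all genes tested was -0.001. A gene was called when its adjusted p was under 0.05 and its mean normalised count over 100. By this rule 2 of the 37, Fancd2 and Brip1, fell, while 110 of all genes tested (0.602%) were called lower, which is 0.84% of the 13092 with a mean over 100. None of the 37 was called higher by edgeR, DESeq2 or limma-voom, against 0.58% of all genes called higher by edgeR. None had an unadjusted p under 0.05 in that direction by edgeR, against 6.5% of all genes. An unadjusted p under 0.05 with a lower level was found for 12 of the 37, compared with 7% of all genes tested. In 12 of the 37 all Prmt1-null libraries lay below all Control libraries, a pattern seen in 9.92% of all genes tested and in 11.4% of those with a mean over 100. None of the 37 had the opposite pattern, which 9.95% of all genes showed. With 3 libraries against 3, the smallest p that an exact permutation test of a single gene can give is 0.1. Each of the 12 genes reached it, which follows from groups that do not overlap and adds nothing to that pattern.

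The calls were few and their number moved with the test, but each was in the lower direction. DESeq2 called 7 of the 37 (Brca1, Bard1, Brca2, Fancd2, Brip1, Rad50 and Blm), all lower, when it called 1.52% of all genes lower. The other settings of the fit called 1 to 6 of the 37, all lower, with 3 by limma-voom (0.662% of all genes lower), 4 with sex as a covariate (0.755%), 6 without the filter on low counts (1.38%), 2 with median-of-ratios size factors (0.613%) and 1 with the replicate number as a block (0.383%). The number fell to 0 without Control replicate 1, Control replicate 2 or Prmt1-null replicate 1, 2 or 3, when 0.297, 0.155, 0.116, 0.0534 and 0.187% of all genes were called lower, and it was 5 without Control replicate 3 (0.896%).

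**Figure D1:**
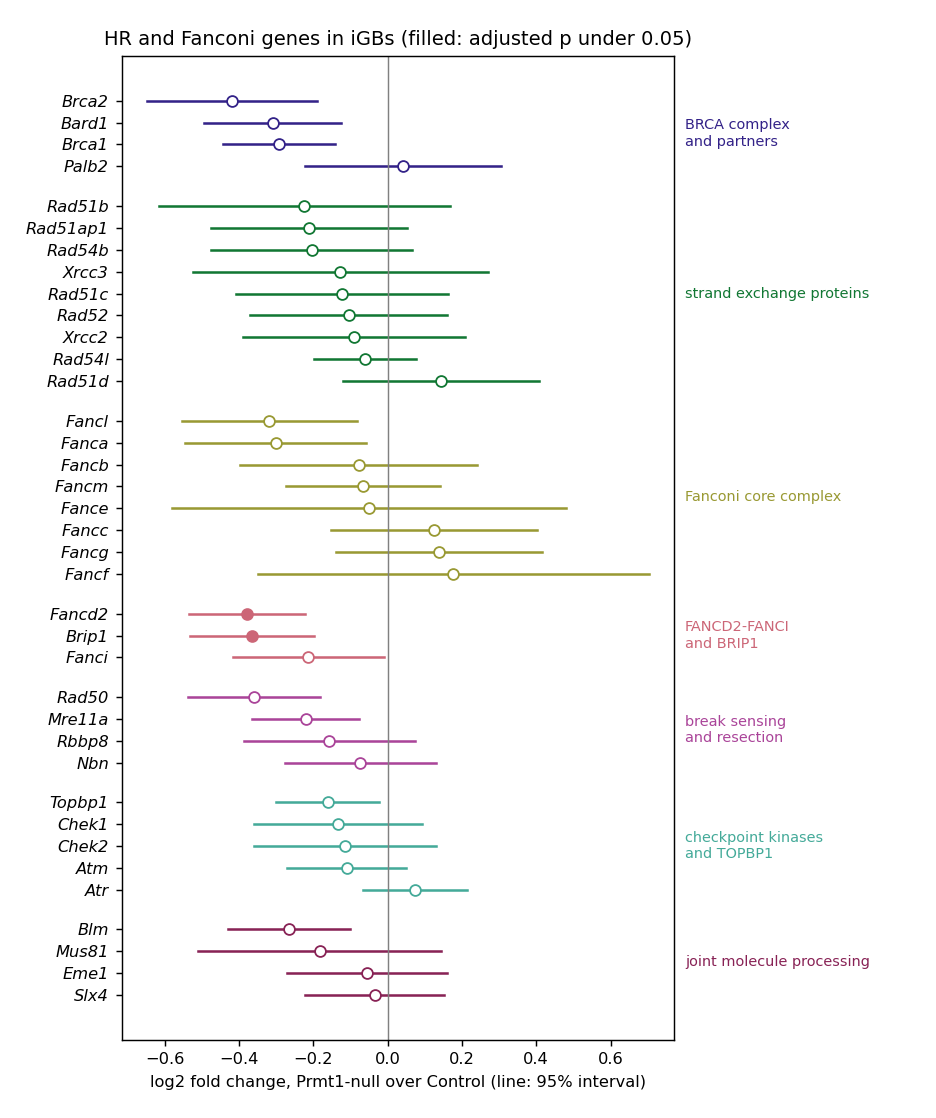
Log2 fold change of each of the 37 genes between Prmt1-null and Control iGBs (x axis; points are edgeR estimates and lines their 95% intervals, n = 3 libraries per group), grouped by role; filled points passed the adjusted p of 0.05. The 31 points left of 0 include all members of the FANCD2-FANCI, break sensing and joint molecule groups, and the intervals of Fancd2 and Brip1 end at -0.22 and -0.20.

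The FANCD2-FANCI pair and BRIP1 had a median of -0.37 and held both calls. This was the lowest median of the 7 groups, though without Control replicate 1 it was -0.270 beside -0.274 for the BRCA group. FANCD2 and FANCI form the clamp that is ubiquitinated at a blocked fork, and BRIP1, also called FANCJ, is a helicase that binds BRCA1. Fancd2 (chr6:113531682-113597017, plus strand) had normalised counts of 2643, 2696 and 2509.9 in Control replicates 1 to 3 and 1998, 1962 and 2079.6 in Prmt1-null replicates 1 to 3. The Control libraries were close together and stood well clear of the Prmt1-null ones. The mean was 23.1% lower (2616 ± 95.9 against 2013 ± 60.4, SD, n = 3), a log2 fold change of -0.38 with an SE of 0.072 and an edgeR adjusted p of 0.0258. Brip1 (chr11:86058138-86201193, minus strand) had 5731, 5009.7 and 4546 in Control and 3816, 4071 and 3977 in Prmt1-null iGBs, so the spread was wide in Control and narrow in Prmt1-null iGBs. It fell by 22.4% (log2 fold change -0.37, SE 0.078, edgeR adjusted p = 0.0391). For Fancd2 the log2 difference was -0.40 in the females and -0.35 in the male pair, and for Brip1 it was -0.28 and -0.53. A negative sign in each sex follows from groups that do not overlap and adds nothing to it. Fanci (chr7:79391929-79450264, plus strand) gave 2143, 1984 and 1792 in Control and 1577, 1669 and 1861 in Prmt1-null iGBs. Here the groups overlapped, since Prmt1-null replicate 3 lay above Control replicate 3 (log2 fold change -0.21, SE 0.095, edgeR adjusted p = 0.341). The exons of Fanci share 16% of their length with Polg on the other strand and those of Fancd2 3.2% with Fancd2os, and whether reads were counted by strand is not stated.

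Promoters of S phase genes are often bound by E2F factors and by NF-Y, which reads the CCAAT box, and those of G2/M genes by complexes on the cell cycle homology region (CHR). RefSeq promoter windows (GRCm38.p6, 250 bases before to 50 after a start) were found for 30 of the 37 genes, and none was matched for Nbn, Rad54b, Xrcc2, Fancd2, Rad50, Rad51d and Rbbp8. The window of Brip1 is shown because this was the called gene with a match, and those of Bard1 and Brca2 because they were the genes that held the E2F letters TTTCCCGC and had groups that did not overlap. They are written 5' to 3' in the direction of the gene, with the matches described for each in capitals and any other match in lower case. In Brip1 the capitals mark CCAAT read on the other strand (ATTGG), in Bard1 the E2F letters TTTCCCGC and in Brca2 the same letters on the other strand.
Brip1, chr11:86201144-86201443, minus strand: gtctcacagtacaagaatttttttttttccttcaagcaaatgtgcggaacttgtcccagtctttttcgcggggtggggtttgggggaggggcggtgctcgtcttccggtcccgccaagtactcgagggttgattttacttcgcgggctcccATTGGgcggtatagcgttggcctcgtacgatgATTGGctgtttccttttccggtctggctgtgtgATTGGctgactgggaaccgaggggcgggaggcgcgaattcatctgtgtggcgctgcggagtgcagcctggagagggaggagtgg
Bard1, chr1:71102923-71103222, minus strand: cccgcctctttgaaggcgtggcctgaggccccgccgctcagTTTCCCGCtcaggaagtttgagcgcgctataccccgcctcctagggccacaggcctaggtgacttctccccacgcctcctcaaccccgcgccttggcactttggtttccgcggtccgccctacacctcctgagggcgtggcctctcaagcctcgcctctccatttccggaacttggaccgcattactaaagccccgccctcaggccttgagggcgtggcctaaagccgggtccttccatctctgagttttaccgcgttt
Brca2, chr5:150522371-150522670, plus strand: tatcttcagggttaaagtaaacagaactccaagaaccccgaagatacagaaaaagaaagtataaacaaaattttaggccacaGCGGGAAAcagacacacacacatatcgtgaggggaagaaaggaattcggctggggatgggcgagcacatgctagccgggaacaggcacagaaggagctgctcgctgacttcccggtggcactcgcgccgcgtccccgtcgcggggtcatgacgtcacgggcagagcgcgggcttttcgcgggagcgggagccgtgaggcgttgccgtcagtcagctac

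The Brip1 window held 3 CCAAT boxes, whose first bases lay 99, 67 and 34 bases before the start. In Bard1 and Brca2 the E2F letters began 209 and 168 bases before the start. On either strand, the letters TTTCCCGC, TTTGGCGC, TTTGCCGC or TTTCGCGC stood in 6 of the 30 windows (20%; Bard1, Brca2, Rad51c, Fancg, Chek2 and Topbp1), compared with 2.6% of all genes with a window and 4.46% of those tested. The CCAAT box was found in 18 (60%), against 41.1% of all genes and 42.7% of those tested. The CHR letters TTTGAA or TTCGAA were found in 4 (13.3%), compared with 21.7% of all genes and 16.7% of those tested. The median log2 fold change was -0.14 for the 6 with E2F letters and -0.12 for the 24 without, and the groups did not overlap in 3 of the 6 and 7 of the 24. The order of the medians turned with TTTCCCGC alone, at -0.122 with and -0.127 without. It also turned with TTCCCGC or TTGGCGC, at -0.122 and -0.127, where groups did not overlap in 5 of 15 and 5 of 15. With a CCAAT box the median was -0.11 and without it -0.15, and the groups did not overlap in 6 of 18 and 4 of 12. Of all genes tested 9.92% had Prmt1-null libraries below all Control libraries, and of those with a mean over 100 it was 11.4%. No test of these differences was made. These are matches of letters in a window and do not show that a factor bound there.

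In the group of the BRCA complex and its partners, the median log2 fold change was -0.30, and none of its 4 genes was called by edgeR with genotype alone although 3 had an unadjusted p under 0.05. Brca1 (chr11:101488764-101551955, minus strand), whose protein promotes resection and strand exchange, had 2833, 3114 and 2821 normalised counts in Control and 2339, 2376 and 2449 in Prmt1-null iGBs. Bard1 (chr1:71027498-71103146, minus strand), the obligate partner of BRCA1, had 3176, 2908 and 2783 in Control and 2222, 2251 and 2681 in Prmt1-null iGBs. Brca2 (chr5:150522630-150570329, plus strand), which acts on the resected single strand, had 3952, 3514 and 2764 in Control and 2530.2, 2731 and 2391 in Prmt1-null iGBs. In all 3 genes the groups did not overlap, but for Brca2 Control replicate 3 and Prmt1-null replicate 2 lay side by side. The means were 18.3% lower for Brca1 (log2 fold change -0.29, SE 0.070, edgeR adjusted p = 0.0633), 19.3% lower for Bard1 (-0.31, SE 0.086, edgeR adjusted p = 0.108) and 25.2% lower for Brca2 (-0.42, SE 0.11, edgeR adjusted p = 0.0794). DESeq2 placed all 3 under 0.05, and so did edgeR without the filter on low counts (adjusted p of 0.0256, 0.0138 and 4.27e-05 for Brca1, Bard1 and Brca2). With sex as a covariate Bard1 reached an edgeR adjusted p of 0.0406, and with the replicate number as a block Brca2 reached 0.0481. Brca2 had the lowest fold change of the 37 genes in the full set, but without Control replicate 1 it was -0.30 beside -0.37 for Fancd2, and without Prmt1-null replicate 3 it was -0.375 beside -0.403. Its difference was the one most unlike between sexes among these 3, with -0.26 in females and -0.73 in the male pair. Palb2, which bridges BRCA1 and BRCA2, stood at 608 ± 49.8 in Control and 626 ± 55.6 in Prmt1-null iGBs (log2 fold change 0.042, 95% interval -0.22 to 0.31).

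The genes of strand exchange lay below 0 in 8 of 9 cases, with a median of -0.12 and no call and no unadjusted p under 0.05 by edgeR. Their median was -0.046 without Prmt1-null replicate 1 and -0.194 without Control replicate 3. Rad51ap1 (chr6:126923050-126939587, minus strand), which stimulates strand invasion, was the 1 gene of the 9 whose groups did not overlap, with 508, 539 and 512 normalised counts in Control and 424, 452 and 471 in Prmt1-null iGBs. That pattern was seen in 9.92% of all genes tested and in 11.4% of those with a mean over 100, so 1 of 9 is near the background share. The fold change of Rad51ap1 was -0.21 with an SE of 0.12 (edgeR adjusted p = 0.49). Rad51b, Rad51c, Rad51d, Xrcc2 and Xrcc3 encode related proteins that assist strand exchange, and their fold changes were -0.22, -0.12, 0.14, -0.090 and -0.13, each with an interval that included 0. Rad54l, a motor protein that acts in the search for homology, was measured most precisely of this group, at 3603 ± 86.4 in Control and 3454 ± 176 in Prmt1-null iGBs, and its interval ran from -0.20 to 0.077, though 15.4% of its exon length overlaps Lrrc41 on the other strand. Rad52, which anneals single strands, gave -0.11 (SE 0.12), and Rad54b gave -0.20 (SE 0.13) but shares 35.8% of its exon length with Fsbp on the same strand.

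The Fanconi core complex was split, with 5 of its 8 genes below 0 and 3 above. Its median was -0.059, and -0.043 to -0.004 with 1 library left out. No gene of the complex was called by edgeR, and 2 had an unadjusted p under 0.05, both lower. Fanca (chr8:123268300-123318576, minus strand), a scaffold of the complex, had 1080.1, 952 and 1006 normalised counts in Control and 730.0, 896 and 838 in Prmt1-null iGBs. Fancl (chr11:26386135-26471876, plus strand), the subunit with the ubiquitin ligase activity, had 1615, 1529 and 1247 in Control and 1143, 1239 and 1139 in Prmt1-null iGBs. Both had groups that did not overlap, with Control replicate 3 close to Prmt1-null replicate 2 for Fancl. The means were 18.9% lower for Fanca (log2 fold change -0.30, SE 0.11, edgeR adjusted p = 0.24) and 19.8% lower for Fancl (-0.32, SE 0.11, edgeR adjusted p = 0.199). Their exons overlap Zfp276 over 10.5% and Vrk2 over 13.7% of their length on the other strand, and those of Fancc and Fancf overlap Gm16133 over 16.4% and Gas2 over 15%. The other members Fancb, Fancm and Fance lay between -0.078 and -0.051, and Fancc, Fancg and Fancf between 0.12 and 0.18. Fancf and Fance had the fewest counts of this group, 305 ± 125 and 206 ± 72.8 in Control. Their 95% intervals ran from -0.35 to 0.70 and from -0.58 to 0.48, so that of Fance includes the fold change of Fancd2 and that of Fancf ends just short of it.

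All 4 genes of break sensing and resection lay below 0 (median -0.19), and none was called by edgeR while 2 had an unadjusted p under 0.05. Rad50 (chr11:53649519-53707319, minus strand), the tether of the MRE11-RAD50-NBS1 complex, had 2259, 2198 and 1995 normalised counts in Control and 1696, 1721 and 1609 in Prmt1-null iGBs. The groups lay apart by more than the range of either, and the mean was 22.1% lower (log2 fold change -0.36, SE 0.083, edgeR adjusted p = 0.0529). Rad50 was under 0.05 with limma-voom, with DESeq2, with sex in the model, without the filter on low counts and without Control replicate 3. It was at 0.0526 with median-of-ratios size factors, 0.0895 with the replicate number as a block and 0.123 to 0.201 without any one of the other 5 libraries (edgeR adjusted p). Mre11a (chr9:14784654-14837123, plus strand) encodes the nuclease of the complex, whose arginines PRMT1 is known to methylate. It had 4415, 4042 and 3972 normalised counts in Control and 3743, 3370.2 and 3554 in Prmt1-null iGBs, 14.2% lower without overlap (log2 fold change -0.22, SE 0.067, edgeR adjusted p = 0.14). Nbn, which encodes NBS1, differed little (1346 ± 57.6 against 1279 ± 70.3, log2 fold change -0.073, SE 0.094), so the 3 genes of the complex gave -0.36, -0.22 and -0.073. Rbbp8, which encodes CtIP, gave -0.16 (SE 0.11).

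The checkpoint group had a median of -0.11, no call by edgeR and 1 unadjusted p under 0.05, that of Topbp1 (chr9:103305215-103350428, plus strand), the activator of ATR. The median of the group was -0.030 without Control replicate 1 and -0.153 without Control replicate 3. Topbp1 had 9457, 9301 and 8232 normalised counts in Control and 7907, 8211 and 8024 in Prmt1-null iGBs, and Control replicate 3 lay just above the highest Prmt1-null library. The mean was 10.6% lower (log2 fold change -0.16, SE 0.064, edgeR adjusted p = 0.277). The kinases were closer to 0. Atr gave 0.075, with an interval of -0.065 to 0.22 that leaves out a fall of the size of Fancd2, Atm gave -0.11 (-0.27 to 0.050), and Chek1 and Chek2 gave -0.13 and -0.11.

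Of the 4 genes that process joint molecules (median -0.12, no call by edgeR, 1 unadjusted p under 0.05), Blm stood lowest. The median of the group was -0.063 without Control replicate 3 and -0.154 without Prmt1-null replicate 1. Blm (chr7:80454733-80535119, minus strand), the helicase that dissolves double Holliday junctions, had 3167, 2899 and 2752 normalised counts in Control and 2469, 2580.2 and 2287 in Prmt1-null iGBs. The groups did not overlap and the mean was 16.8% lower (log2 fold change -0.27, SE 0.077, edgeR adjusted p = 0.12). The nuclease subunits Mus81 and Eme1 gave -0.18 (SE 0.15) and -0.056 (SE 0.10), and the nuclease scaffold Slx4 gave -0.034 (SE 0.087).

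**Figure D2:**
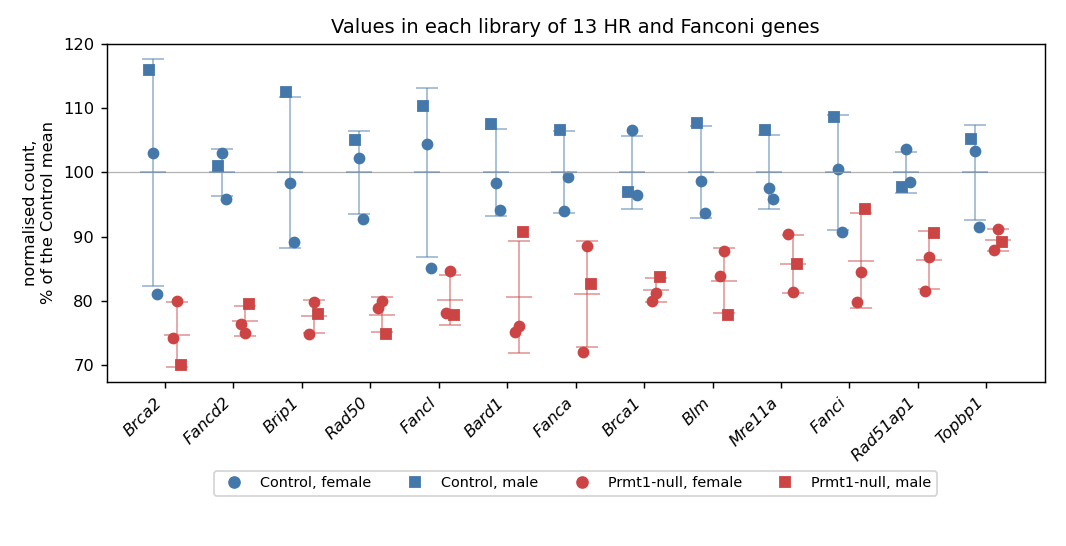
Normalised counts of 13 genes in each library as a percentage of the gene's Control mean (y axis, not starting at 0); circles are female and squares male mice, and bars show the mean ± SD of 3 libraries. The 13 were chosen for groups that did not overlap or an unadjusted edgeR p under 0.05. Red Prmt1-null points therefore lie below all blue Control points in every gene but Fanci. The male Control mouse is the highest of all 6 libraries in 10 of the 13.

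Over the 13 genes with values given for each library, Control replicate 1, the male, was highest in 10 and Prmt1-null replicate 1 lowest in 7. Over the 13092 genes with a mean over 100, deviations from the group means correlated at 0.49 between the male libraries and at 0.19 to 0.25 between female libraries of the groups, but at -0.34 to -0.31 between libraries of unlike sex. Deviations balance out within each group, so the other correlations largely follow from that between the male libraries. With 1 male per group, sex cannot be told apart from anything else that the male libraries share. The fit on genotype alone does not model this pattern, and the calls with sex as a covariate are given above. Over all 37 genes, Control replicate 1 was highest in 20 and lowest in 4, and Prmt1-null replicate 1 was lowest in 15. Of the 37 genes, 28 were lower in Prmt1-null iGBs among the females (2 against 2) with a median of -0.093, and 27 in the male pair with a median of -0.21. The median of the 37 genes relative to the Control mean was 0.075, 0.012 and -0.059 in Control replicates 1 to 3 and -0.18, -0.13 and -0.096 in Prmt1-null replicates 1 to 3. The groups thus did not overlap in this median, whose pooled SD between replicates was 0.057.

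**Figure D3:**
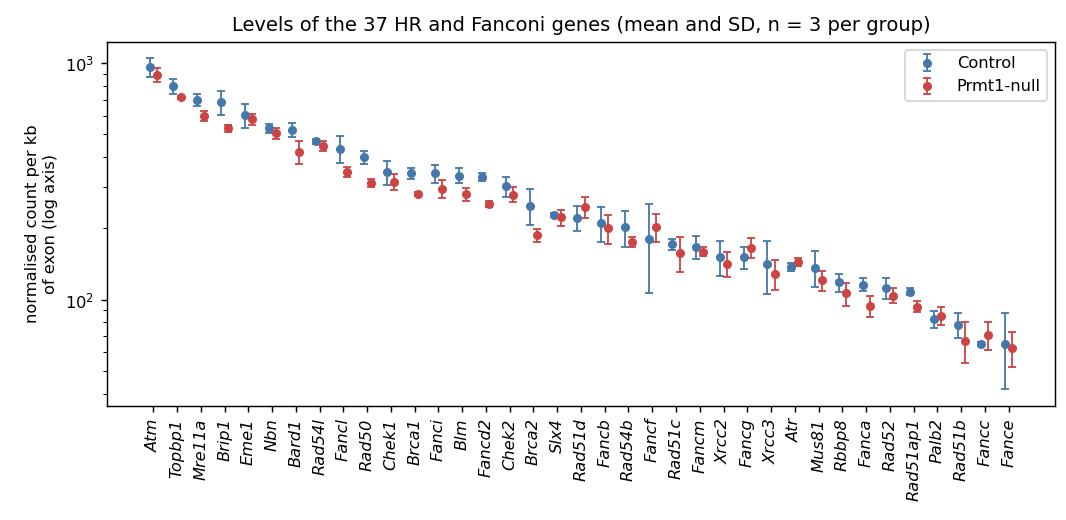
Level of the 37 genes in normalised counts per kb of exon (log axis), ordered by the Control mean, with points for the mean and bars for the SD of 3 libraries per group. The levels run from 963 for Atm to 64.6 for Fance in Control iGBs.

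Per kb of exon, the levels in Control iGBs spanned a wide range. Atm, Topbp1, Mre11a and Brip1 were highest, at 963 ± 89.0, 801 ± 59.4, 699 ± 40.2 and 684 ± 80.1 normalised counts per kb. Palb2, Rad51b, Fancc and Fance were lowest, at 82.8 ± 6.78, 78.2 ± 9.38, 64.8 ± 1.5 and 64.6 ± 22.8. Mre11a and Brip1, and likewise Fancc and Fance, did not differ beyond their spread. The 3 genes of 1 complex were not at 1 level, with Mre11a at 699, Nbn at 531 ± 22.7 and Rad50 at 400.2 ± 25.7 per kb in Control. In Prmt1-null iGBs Mre11a stood at 599.9, Nbn at 505 and Rad50 at 312 per kb. The 12 genes whose groups did not overlap had a median Control level of 371 per kb, a median count of 2931 and a median SE of 0.080. The other 25 had a median of 172 per kb, a count of 826 and an SE of 0.12, so the sets also differed in how precisely their genes were measured. Of these 25 genes, 19 lay below 0.

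Other genes of the same pathways, taken from a list of 63, also lay mostly below 0. Their median was -0.073 with 46 below 0, and without Control replicate 1 it was -0.091 beside -0.082 for the 37 genes. No test of the difference between the lists was made. Among the 63, in 15 the Prmt1-null libraries lay below all Control libraries while in 4 they lay above, against 9.92% and 9.95% of all genes tested. By edgeR 3 fell and 1 rose, against 0.602% and 0.58% of all genes. Parpbp, a restraint on recombination, fell from 2982 ± 268 to 2142 ± 155 (log2 fold change -0.48, SE 0.084, edgeR adjusted p = 0.0152). Gen1, a resolvase of Holliday junctions, fell by 0.40 on the log2 scale (SE 0.077, edgeR adjusted p = 0.0271), and Recql5, a helicase that also limits recombination, fell by 0.40 (SE 0.081, edgeR adjusted p = 0.0327). Eme2, an alternative partner of MUS81, rose from 1317 ± 165 to 1816 ± 37.5 (log2 fold change 0.46, SE 0.10, edgeR adjusted p = 0.0413). All 4 calls were lost without Control replicate 2 or Prmt1-null replicate 1 or 2 (edgeR adjusted p from 0.0546 to 0.197), and those of Gen1, Recql5 and Eme2 also without Control replicate 1 or Prmt1-null replicate 3 (0.0586 to 0.14).

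Other repair pathways were read from the same fit, with no test of the difference between lists. By edgeR 0.602% of all genes tested were called lower and 0.58% higher. All 7 mismatch repair genes lay below 0 (median -0.15), and Msh6, whose protein recognises base mismatches, fell from 3611 ± 3.69 to 2817 ± 223 (log2 fold change -0.36, edgeR adjusted p = 0.0283). End joining genes had a median of -0.052 with 12 of 21 tested below 0, and 1 of them fell, the single-strand break scaffold Xrcc1 (log2 fold change -0.38, edgeR adjusted p = 0.0241). The ligase Lig1 gave -0.20 (edgeR adjusted p = 0.283). The median of the end joining genes was -0.001 without Control replicate 1. The calls of Msh6 and Xrcc1 were lost without Control replicate 2 or any one of the Prmt1-null libraries (edgeR adjusted p from 0.0695 to 0.147), and that of Msh6 also without Control replicate 1 (0.0599). Nucleotide excision repair genes had a median of 0.057, with 7 of 18 below 0 and no call by edgeR, and 2 had an unadjusted p under 0.05 in each direction. Their smallest p-values were those of Uvssa, lower by 0.34 (edgeR adjusted p = 0.173), and Ddb2, higher by 0.30 (edgeR adjusted p = 0.275).

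**Figure D4:**
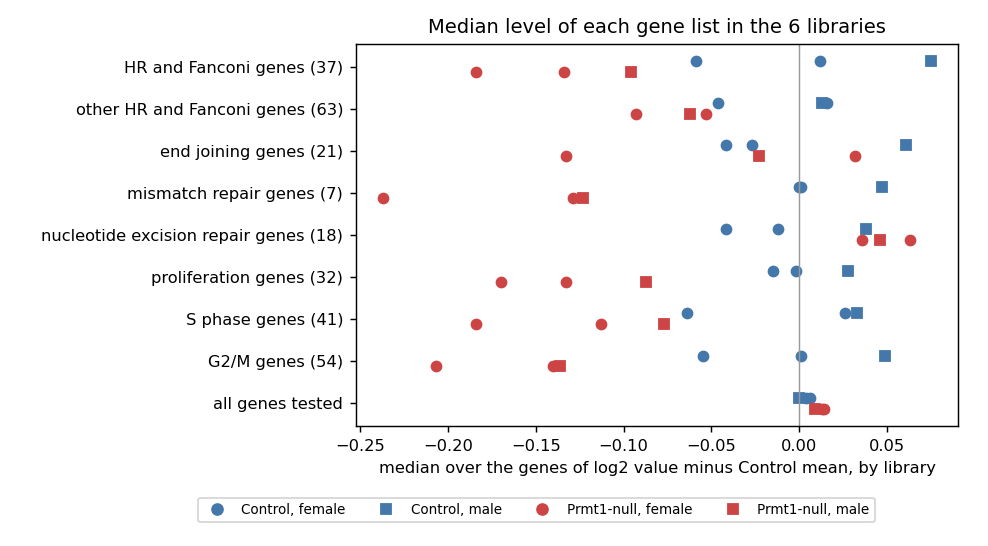
Median over each gene list of the log2 normalised count minus the Control mean, for each of the 6 libraries (x axis, log2 scale; the number of genes is in parentheses); circles are female and squares male mice. For the 37 genes the Control libraries lie between -0.059 and 0.075 and the Prmt1-null ones between -0.18 and -0.096, and the S phase, G2/M and proliferation lists lie in a similar order, while all genes tested stay near 0.

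Genes of the cell cycle outside the 37 also lay mostly below 0. The median was -0.14 for 41 S phase genes, -0.16 for 54 G2/M genes and -0.13 for 32 proliferation genes, which share 13 genes with the S phase list and 6 with the G2/M list. The S phase list also shares 5 genes with the list of 63 and 1 with mismatch repair, so these lists are not independent. Below 0 were 32 of the 41, 46 of the 54 and 24 of the 32, and the Prmt1-null libraries lay below all Control libraries in 13, 25 and 14 and above them in 1, 2 and 2, against 9.92% and 9.95% of all genes tested. The calls by edgeR were all lower, with 3 in each list, against 0.602% of all genes tested and 0.84% of those with a mean over 100. Among the proliferation genes they were E2f2, a transcription factor of the G1/S switch (-0.43, edgeR adjusted p = 0.0061), the cyclin Ccne2 (-0.43, edgeR adjusted p = 0.0332) and Rrm2, a subunit of ribonucleotide reductase (-0.30, edgeR adjusted p = 0.033). The S phase list held Ccne2 and Rrm2 too and the replication clamp loader subunit Rfc2 (-0.30, edgeR adjusted p = 0.0282). In the G2/M list they were the spindle motor Kif11 (-0.36, edgeR adjusted p = 0.0152), the condensin subunit Ncapd2 (-0.29, edgeR adjusted p = 0.033) and Hmgb2, which bends chromatin (-0.26, edgeR adjusted p = 0.0492). The call of E2f2 was lost without Prmt1-null replicate 2 (edgeR adjusted p = 0.0682), and those of the other 6 without Control replicate 2 or any one of the Prmt1-null libraries (0.0681 to 0.255). Without Control replicate 1, Ccne2, Rrm2, Rfc2 and Hmgb2 lost theirs (0.0575 to 0.106), and Hmgb2 also did with limma-voom (0.0579) and with sex as a covariate (0.0567). The summed level of the proliferation genes was 4098 to 4660 CPM in Control and 3788 to 4117 in Prmt1-null iGBs, where Prmt1-null replicate 3 lay just above Control replicate 3. The part of the cell cycle in the lower level of the 37 genes was not tested, and in RNA from whole cultures fewer cells in S and G2 phase and less of a transcript per cell cannot be told apart.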

How the data were processed

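RNA-seq was made from 3 Control and 3 Prmt1-null iGB cultures, 1 library per mouse, after ribosomal RNA depletion with a KAPA stranded kit. Per the labels and the study's methods, the authors used Trimmomatic 0.32 for trimming and STAR 2.3.0e for alignment to mm10, and counted primary alignments to at most 2 locations on exons with featureCounts 1.4.4 and Ensembl's ensGene annotation. The strand setting is not stated. The deposited table holds the raw, unnormalised counts of 39017 genes. The labels and the methods give different IL-4 doses.

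Here, counts without the 398 chromosome Y genes, which the study also excluded, were fitted on genotype alone in R 4.3.3 with edgeR 4.0.16 (filterByExpr with a minimum count of 10, TMM, glmQLFit and glmQLFTest, Benjamini-Hochberg adjustment over 18268 genes). Normalised counts are counts scaled to the mean effective library size. The SE is the fold change over the square root of F. P-values measure the spread between 3 mice per group. Intervals and floors cover no PCR copies. The fit was checked on simulated counts. Positions and exon lengths came from GENCODE M21 (GRCm38), matched by ID for 37607 genes and by symbol for 804, with 606 unmatched, and promoters from RefSeq. S phase and G2/M lists are those of Seurat 5.3.0 without the 37 genes. Alternatives were DESeq2 1.42.0 (the study's tool), limma-voom (limma 3.58.1), median-of-ratios size factors, no filter, the replicate number as a block, sex as a covariate, no minimum mean count, and each library left out.

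The genes and lists were chosen with earlier results of these data known, so no set test was made. Values per library are given for genes of the 37 that passed the call, had an unadjusted p under 0.05, had groups that did not overlap or had the smallest p of their role, and for Mre11a. Genes of other lists are named when called or among the 2 smallest p-values. A few of these are not reported here. Proteins were not analysed here.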

Additional observations from a re-analysis of the deposited data

How the results depend on the processing

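The number of the 37 genes called, 2 with edgeR, was 7 with DESeq2, 6 without the filter on low counts, 4 with sex as a covariate and 0 to 5 with 1 library left out. It was 3 with limma-voom and 2 with median-of-ratios size factors or without the minimum mean count. Over all genes 216 were called, 709 with DESeq2, 675 without the filter and 31 to 340 with 1 library left out. Deviations of same-numbered libraries correlated at -0.31, 0.22 and -0.34 over 13092 genes for replicates 1, 2 and 3. Replicates 1 and 3 join a male with a female library, so these values cannot tell whether the numbers mark pairs. With the replicate block 1 of the 37 was called (Brca2), with Fancd2 at an adjusted p of 0.056 and Brip1 at 0.0504 (edgeR). Of the genes called in the other lists, Gen1, Recql5, Eme2, Rfc2, Ncapd2 and Hmgb2 had adjusted p-values of 0.0547, 0.0648, 0.0648, 0.0547, 0.0529 and 0.0781 with it. With 1 library left out the medians ran from -0.194 to -0.082 for the 37 genes, -0.194 to -0.046 for the genes of strand exchange, -0.043 to -0.004 for the Fanconi core complex, -0.153 to -0.030 for the checkpoint group, -0.154 to -0.063 for joint molecule processing, -0.343 to -0.265 for the BRCA complex, -0.407 to -0.270 for FANCD2-FANCI and BRIP1, -0.228 to -0.125 for break sensing, -0.091 to -0.045 for the other recombination and Fanconi genes, -0.059 to -0.001 for end joining, 0.015 to 0.063 for nucleotide excision repair and -0.163 to -0.094 for proliferation genes. Of the 30 windows, 5 held a match when TTTCCCGC was the only form searched (1.24% of all and 2.26% of tested genes) and 15 the 7-letter forms TTCCCGC and TTGGCGC (7.79% and 13.6%). For the E2F letters as searched, the share of background genes was 4.46% over promoters of tested genes. The causes of these moves were not tested. Fance and Fancf had the widest intervals, with SEs of 0.247 and 0.245 and Control counts of 206 ± 72.8 and 305 ± 125. Rad51b had 294 ± 35.2 and an SE of 0.182. The parts of depth and of spread between mice in these widths were not tested. With 3 libraries per group, no separate test of outlying samples was made.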
